A study of Mus musculus with 8 samples.

Results

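Titin, encoded by Ttn, is the giant protein that spans the sarcomere of striated muscle from the Z-disc to the M-band, and R-loop signal along its gene was compared between muscle stem cells with and without the histone methyltransferase Kmt5b. The members were all union peaks that the deposited table assigns to the gene symbol Ttn, ordered by their start. There were 21 such peaks among 28265 union peaks, and the gene was picked because it differed between the genotypes. The genotype differences at Ttn below are therefore a description, and no test of them is given as support.

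DNA-RNA immunoprecipitation sequencing (DRIP-seq) had been performed on cultured, proliferating mouse muscle stem cells (MuSCs), the Pax7-positive precursors of skeletal muscle fibres. Control cells (Ctrl) carried Pax7CreERT/Suv4-20h1WT, and mutant cells (Kmt5b sKO) carried Pax7CreERT/Suv4-20h1KO, where Suv4-20h1 (Suv420h1) is another name of Kmt5b. Both genotypes carried the tamoxifen-inducible Cre driven from the Pax7 locus and came from adult mice given tamoxifen, so that deletion was limited to Pax7-expressing cells and their progeny. RNA:DNA hybrids were captured with the S9.6 antibody in 3 Ctrl and 3 Kmt5b sKO libraries, which the methods describe as biological replicates. Each genotype also had 1 input library, which has no values in the table.

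R-loops are three-stranded structures in which a nascent RNA pairs with its DNA template and leaves the other DNA strand single. They form behind elongating RNA polymerase and are found over long stretches of active gene bodies. KMT5B dimethylates histone H4 at lysine 20. Ttn is transcribed during muscle differentiation, and its RNA is spliced from an exceptional number of exons. The coding sequence runs in the order of the sarcomere. The first exons encode the Z-disc part, the next ones the elastic I-band with its PEVK segment, which is rich in proline (P), glutamate (E), valine (V) and lysine (K). The last exons encode the A-band, whose repeats of immunoglobulin and fibronectin type III domains lie along the thick filament, and the M-band with the titin kinase.

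Ttn (ENSMUSG00000051747) lies on the minus strand at chr2:76703980-76982547 of GRCm38 and is 278.568 kb long. In the GENCODE annotation its longest coding transcript, Ttn-203, has 347 exons and 105639 coding bases for 35213 residues. The longest exon, of 17106 bases, encodes part of the A-band. Because the gene is on the minus strand, peaks numbered by start from 1 to 21 run from the 3′ end towards the promoter. The noncoding gene Gm13938 lies antisense to Ttn at chr2:76722776-76786708 and overlaps 5 peaks (peaks 1 to 5). The table does not separate strands, so signal from both genes cannot be told apart there.

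Sequences of 300 bases from 3 of the peaks are given to show what the compared stretches of the gene contain. Each was read from GRCm38 on the RNA strand, 5′ to 3′, with exon bases in capitals. Peak 2 had the largest relative loss in Kmt5b sKO, peak 10 the smallest difference among the long peaks, and peak 18 the highest score per kb near the promoter side of the gene. Each window was centred on the exon nearest to the centre of the peak, or on the centre itself where an exon covers it. They lie at chr2:76748851-76749150, chr2:76856166-76856465 and chr2:76921430-76921729.
peak 2: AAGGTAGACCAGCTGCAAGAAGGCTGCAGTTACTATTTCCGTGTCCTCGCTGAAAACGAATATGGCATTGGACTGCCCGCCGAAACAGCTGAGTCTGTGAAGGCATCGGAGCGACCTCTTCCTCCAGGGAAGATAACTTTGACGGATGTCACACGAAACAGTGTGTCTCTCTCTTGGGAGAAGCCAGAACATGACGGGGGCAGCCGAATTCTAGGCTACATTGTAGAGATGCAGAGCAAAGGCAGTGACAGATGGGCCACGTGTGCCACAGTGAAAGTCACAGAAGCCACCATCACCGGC
peak 10: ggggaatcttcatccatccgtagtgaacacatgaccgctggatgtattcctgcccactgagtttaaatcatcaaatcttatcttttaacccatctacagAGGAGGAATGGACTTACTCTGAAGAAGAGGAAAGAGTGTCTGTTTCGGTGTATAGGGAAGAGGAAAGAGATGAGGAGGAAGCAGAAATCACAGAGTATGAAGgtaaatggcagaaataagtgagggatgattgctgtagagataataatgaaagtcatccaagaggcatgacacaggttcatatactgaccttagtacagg
peak 18: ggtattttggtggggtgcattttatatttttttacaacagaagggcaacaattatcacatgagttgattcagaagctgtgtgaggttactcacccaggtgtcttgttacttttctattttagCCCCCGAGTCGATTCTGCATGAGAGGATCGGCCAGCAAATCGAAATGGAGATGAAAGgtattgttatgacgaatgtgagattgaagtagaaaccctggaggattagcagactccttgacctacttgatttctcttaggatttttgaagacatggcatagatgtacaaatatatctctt
The window of peak 2 is exonic over all 300 bases, with 53% G and C. The window of peak 10 holds a short exon of 102 bases between introns, with 42% G and C, and that of peak 18 an exon of 57 bases, with 39.7% G and C.

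The table gives a score per union peak and library, the S9.6 coverage summed over the peak and scaled to a Drosophila spike-in, in whole numbers. Scores rose with peak length, so levels of different peaks were compared per kb. Read depth is not in the table. The study lists fewer uniquely mapped reads for each Kmt5b sKO library than for any Ctrl library. Depth thus goes with genotype, and its part in the results below was not tested. Summed over all union peaks, the libraries held scores between 3893768 and 4930261. Over autosomal peaks, the mean score per peak ranged from 138 to 168 in Ctrl and from 167 to 175 in Kmt5b sKO. Among the Ctrl libraries, replicate 2 had the highest total. Of 12 MuSC and myoblast marker genes, 7 had autosomal peaks, among them Pax7, Myod1 and Des, while Myf5 and Cdh15 had none. None of the 11 markers of fibro-adipogenic, immune and glial cells had an autosomal peak. Of 4 endothelial markers Pecam1 and Tek had peaks, which summed to scores of 186, 178 and 193 in Ctrl and 364, 290 and 337 in Kmt5b sKO. Of 3 pericyte markers Cspg4 had peaks, which summed to 480, 537 and 463 in Ctrl and 572, 727 and 696 in Kmt5b sKO. Both sums were higher in Kmt5b sKO, as were many peaks of the series. Over the peaks tested below, the median log2 fold change was 0.74 for the 4 endothelial and 0.27 for the 5 pericyte peaks. Over all tested peaks it was 0.35. The part of such cells in the results below was not tested. The 1 peak assigned to Kmt5b itself scored 412, 658 and 420 in Ctrl and 440, 449 and 484 in Kmt5b sKO. Such a score is no measure of the deletion.

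Union peaks, which are merged over all libraries, covered most of Ttn. The 21 peaks spanned 211.6 kb, and 73.7% of the gene lay under a peak. The largest stretch of the gene without a peak was 12 kb long. The transcription start site itself was in no peak. The peak nearest to it, peak 21, was only 0.4 kb long and was centred 0.55 kb into the gene. Its scores were 17, 28 and 15 in Ctrl and 21, 17 and 8 in Kmt5b sKO, and its mean was under the minimum of 30 needed for a fit. At the other end, peak 1 ran 6379 bases past the annotated end of the gene.

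Summed over the 21 peaks, the Ttn score was 7470, 11587 and 8346 in the Ctrl libraries and 5437, 5559 and 5572 in the Kmt5b sKO libraries. All Kmt5b sKO libraries were below all Ctrl libraries, and Ctrl replicate 2 was far above the other two. The Ctrl mean was 9134 ± 2169 and the Kmt5b sKO mean 5523 ± 74.5 (both with SD, n = 3), a ratio of 0.605. As a share of each library's autosomal total, in permille, the Ttn score was 1.93, 2.48 and 2.17 in Ctrl and 1.17, 1.14 and 1.18 in Kmt5b sKO. Fewer cells transcribing Ttn and less signal per cell cannot be told apart in such bulk libraries. On the log2 scale the summed score differed by -0.70, and by -0.52 without Ctrl replicate 2.

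The signal was uneven along the gene, and so was the genotype difference. In Ctrl the score per kb was highest at peak 2 (63.6), peak 18 (57.4), peak 21 (50) and peak 1 (47.5), and the other peaks lay between 24.4 and 44.1. In Kmt5b sKO the long peaks at the ends of the gene were closer to its middle. Peak 2 had 26.8, peak 18 had 32.7 and peak 1 had 25.8 per kb, while peak 10 in the middle of the gene had 31.4. The short peak 21 had 38.3, and the highest value was 42.2 at peak 16.

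**Figure D1:**
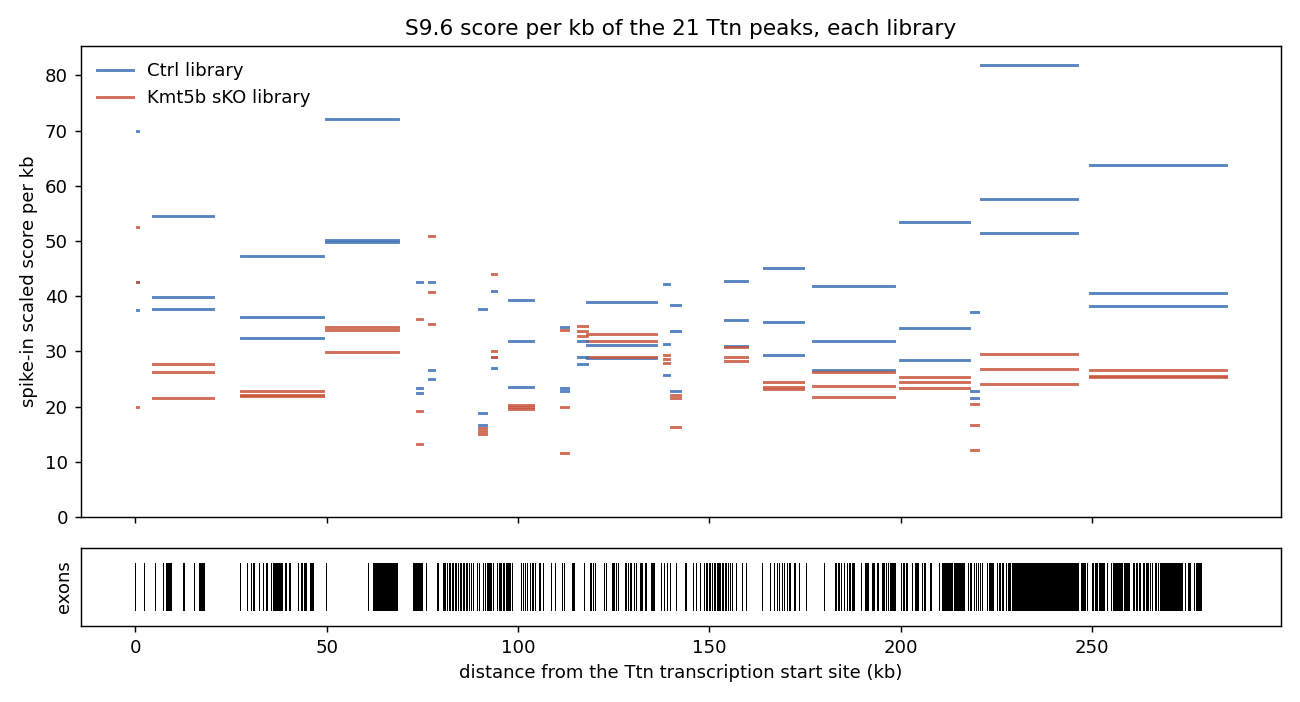
Score per kb (vertical axis) of each Ttn peak in the 3 Ctrl (blue) and 3 Kmt5b sKO (red) libraries against distance from the transcription start site in kb. Each line spans the length of its peak, and black bars mark exons (the shortest are widened to stay visible). At the 3′ end and near the promoter the Ctrl lines lie above the Kmt5b sKO lines, whereas at peak 10, 127 kb from the start site, they overlap.

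For the genotype comparison log2(score + 1) was fitted with limma over all 25815 autosomal peaks with a mean score above 30, of which 20 were Ttn peaks. A peak was called where the adjusted p was under 0.1 and the fold change over 1.5. Across all tested peaks the median log2 fold change, Kmt5b sKO over Ctrl, was 0.35. Of all tested peaks 0.883% were called lower and 32.9% higher. At Ttn 10 of the 20 tested peaks were called lower (peaks 1 to 4, 6, 8, 13 and 18 to 20) and 0 higher. At an unadjusted p under 0.05, limma gave 11 lower and 0 higher. The share of all tested peaks at that limit was not counted. The log2 fold change was below 0 at 17 of the 20 peaks, against 21.3% of all tested peaks, and the median over the Ttn peaks was -0.57. At 13 Ttn peaks all 3 Kmt5b sKO libraries were below all 3 Ctrl libraries, which held for 3.81% of tested peaks. The opposite held at 1 Ttn peak and for 41.5% of tested peaks. Since the gene was picked on this contrast, nothing is read from these shares. Without Ctrl replicate 2, 5 Ttn peaks were called lower (peaks 1, 2, 18, 19 and 20), at a background of 0.318%. With each library centred on its median peak, 16 were called lower, at a background of 13.1%.

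**Figure D2:**
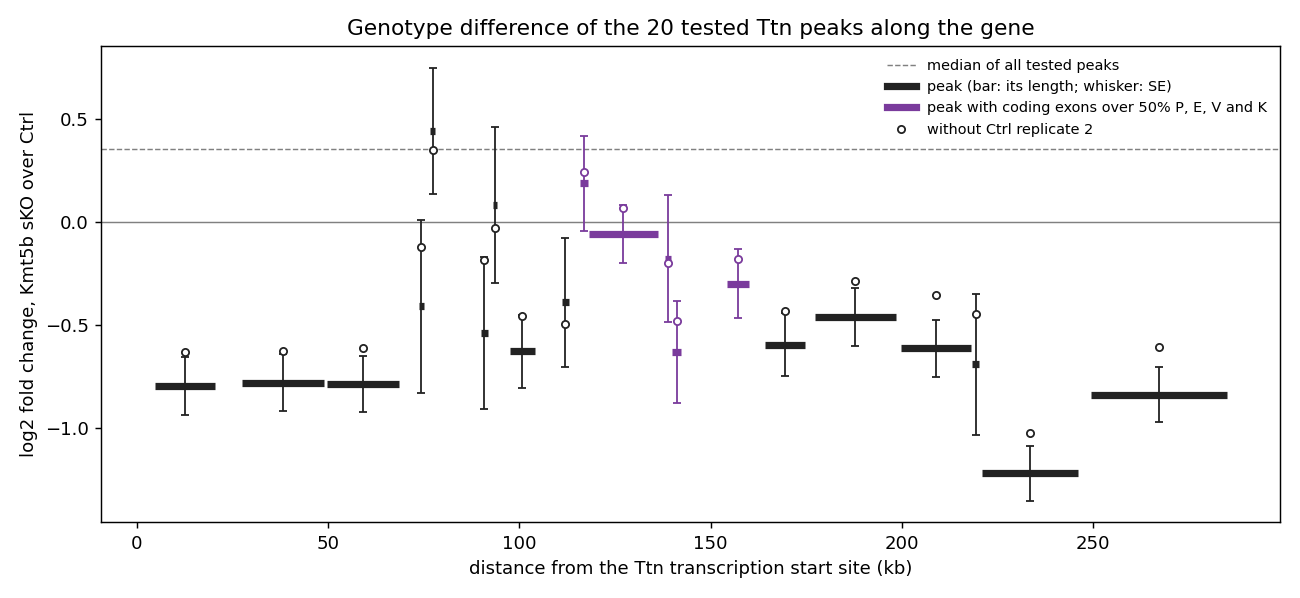
Log2 fold change, Kmt5b sKO over Ctrl (vertical axis), of the 20 tested Ttn peaks against distance from the transcription start site in kb, with whiskers for the SE and open circles for the value without Ctrl replicate 2. The 3 peaks nearest the promoter that were tested lie near -0.8 and peak 2 at -1.22. Of the violet peaks (PEVK exons, peaks 7 to 11), peaks 10 and 11 lie at -0.06 and 0.19. Peaks 7, 8 and 9 lie at -0.30, -0.63 and -0.18.

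The largest relative loss was at peak 2, which covers most of the longest exon, in the A-band part of the gene. Peak 2 (chr2:76736400-76761599, 25.2 kb) scored 1295, 2062 and 1451 in Ctrl and 608, 745 and 676 in Kmt5b sKO. The groups were far apart, and the lowest Ctrl library was well above the highest Kmt5b sKO library. The log2 fold change was -1.22 ± 0.13 (SE), or 0.422 of the Ctrl mean, and without Ctrl replicate 2 it was -1.02. The SE leans on the spread of all peaks of like score (a variance trend), and without that trend it was 0.21. Exons made up 84.2% of this peak, which held 16769 bases of the longest exon and the codons of residues 20980 to 28049. Among the 1407 tested peaks of 15 kb or more, all of which have a gene, it ranked 1 both in exonic share and in size of loss. Among all 25815 tested peaks it ranked 3 in size of loss.

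Peak 1 (chr2:76697600-76732999, 35.4 kb) covers the end of the A-band and the M-band, residues 28657 to 35213, and the 3′ end of the gene. It scored 1352, 2258 and 1437 in Ctrl and 906, 942 and 897 in Kmt5b sKO. The groups did not overlap, and Ctrl replicate 2 stood well above the other Ctrl libraries. The log2 fold change was -0.84 ± 0.13 and, without Ctrl replicate 2, -0.61.

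The part between the PEVK segment and the longest exon was lower by less. Peak 4 (18.2 kb, residues 17082 to 20390) scored 517, 973 and 624 in Ctrl and 444, 426 and 461 in Kmt5b sKO. Its log2 fold change of -0.61 was past the threshold, but without Ctrl replicate 2 it was -0.36 and the peak was not called. Peak 5 (21.2 kb, residues 14030 to 16989) scored 565, 886 and 677 in Ctrl and 503, 557 and 462 in Kmt5b sKO. Its log2 fold change of -0.46 was short of the fold threshold, although the groups did not overlap. Peak 6 (10.4 kb) scored 305, 469 and 367 in Ctrl and 254, 242 and 246 in Kmt5b sKO, with a log2 fold change of -0.60. The short peak 3 between the longest exon and peak 4 had a Ctrl mean of 49.0 ± 15.6 and a Kmt5b sKO mean of 29.7 ± 7.51 (both with SD, n = 3).

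In the PEVK part of the gene the long peak 10 was nearly the same in both genotypes in the spike-in scaled scores. Peak 10 (chr2:76846400-76864399, 18.0 kb) scored 519, 700 and 560 in Ctrl and 575, 522 and 597 in Kmt5b sKO. The groups overlapped, and the log2 fold change was -0.06 ± 0.14. Under other scalings it was -0.27 (equal totals), -0.13 (quantile) and -0.54 (each library centred on its median peak), and the peak was called under none. This peak covers 34 short exons, which make up 20.5% of it and encode residues 9897 to 11088, of which 70.1% are P, E, V or K, against 35.1% over the whole protein. Next to it, peak 11 (2.2 kb) scored 61, 70 and 64 in Ctrl and 72, 76 and 74 in Kmt5b sKO. It was the only tested Ttn peak at which all Kmt5b sKO libraries were above all Ctrl libraries, at a log2 fold change of 0.19 ± 0.23 that was not called.

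Peaks 7 to 11 were those whose coding exons encode more than 50% P, E, V and K, a limit chosen after their values were seen. Their summed score was 851, 1154 and 971 in Ctrl and 908, 857 and 926 in Kmt5b sKO, and the groups overlapped. The other 16 Ttn peaks summed to 6619, 10433 and 7375 in Ctrl and to 4529, 4702 and 4646 in Kmt5b sKO, without overlap. The log2 differences were -0.13 and -0.79. Peak 10, the long peak with the smallest difference, made up most of the PEVK sum, with a Ctrl mean of 593 out of 992. Within the PEVK group, peaks 7 and 8 had no overlap. Peak 7 scored 180, 248 and 207 in Ctrl and 168, 179 and 164 in Kmt5b sKO, at a log2 fold change of -0.30 that was not called. Peak 8 had a Ctrl mean of 76.0 ± 19.0 and a Kmt5b sKO mean of 48.0 ± 7.81, and it was called lower, but not without Ctrl replicate 2.

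The part of the I-band between the PEVK segment and peak 18 held small peaks at low scores. Of the 6 peaks from 12 to 17, peak 13 was the longest, at 6.40 kb. It scored 151, 252 and 204 in Ctrl and 128, 130 and 125 in Kmt5b sKO, a log2 fold change of -0.63 with no overlap. Peak 14 (1 kb) scored 29, 27 and 41 in Ctrl and 29, 44 and 30 in Kmt5b sKO, at a log2 fold change of 0.08. Peak 16 lay wholly in an intron, with 41.2% of its bases in annotated repeats, and had the highest fold change of the gene. Its scores of 30, 32 and 51 in Ctrl and 49, 42 and 61 in Kmt5b sKO overlapped, and its log2 fold change was 0.44 ± 0.31. Peak 17 lay wholly inside an exon, and its scores of 27, 51 and 28 in Ctrl overlapped those of 23, 43 and 16 in Kmt5b sKO.

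The 3 long peaks on the promoter side were lower by similar amounts. Peak 18 (chr2:76914000-76932799, 18.8 kb) scored 936, 1355 and 945 in Ctrl and 648, 562 and 637 in Kmt5b sKO. Most of the exonic bases in it, 6463, belong to a single exon of the short transcript Ttn-202. Peak 19 (21.4 kb, residues 723 to 3240) scored 696, 1013 and 775 in Ctrl and 487, 472 and 468 in Kmt5b sKO. Peak 20 (15.6 kb), over the exons of the Z-disc end from residue 31 to 693, scored 588, 851 and 623 in Ctrl and 336, 409 and 432 in Kmt5b sKO. At none of the 3 did the groups overlap. Their log2 fold changes were -0.79, -0.78 and -0.80, and between -0.63 and -0.61 without Ctrl replicate 2.

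Grouped along the gene, the difference was thus largest at both ends. The 3 peaks nearest the 3′ end (peaks 1 to 3) summed to 0.486 of the Ctrl mean, and the 5 peaks 4 to 8 to 0.680. The 9 peaks 9 to 17 summed to 925, 1285 and 1103 in Ctrl and 979, 947 and 1032 in Kmt5b sKO, a ratio of 0.893 with overlapping groups. The 4 peaks nearest the promoter (peaks 18 to 21) summed to 0.573 of the Ctrl mean. These groups are the peaks centred in successive stretches of equal length of the gene. On either side of the midpoint the log2 difference of the summed scores was -0.80 (promoter-distal, 8 peaks) and -0.56 (promoter-proximal, 13 peaks).

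Ratios within a library, in which a scaling factor cancels, were also taken. Peaks 2 and 10 were chosen for the largest loss and the smallest difference among the long peaks. A genotype difference in their ratio and shares therefore follows from that choice, and nothing is read from it. The score of peak 2 divided by that of peak 10 was 2.50, 2.95 and 2.59 in Ctrl and 1.06, 1.43 and 1.13 in Kmt5b sKO. Per kb, peak 2 was 1.78 to 2.10 times as high as peak 10 in the Ctrl libraries, and 0.755 to 1.02 times in the Kmt5b sKO libraries. Peak 2 held 17.3%, 17.8% and 17.4% of the Ttn score in Ctrl but 11.2%, 13.4% and 12.1% in Kmt5b sKO. Peak 10 held 6.95%, 6.04% and 6.71% in Ctrl but 10.6%, 9.39% and 10.7% in Kmt5b sKO. In these ratios Ctrl replicate 2 was on the side away from the Kmt5b sKO libraries. The share of peak 18 overlapped between the groups, at 11.3% to 12.5% in Ctrl and 10.1% to 11.9% in Kmt5b sKO.

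**Figure D3:**
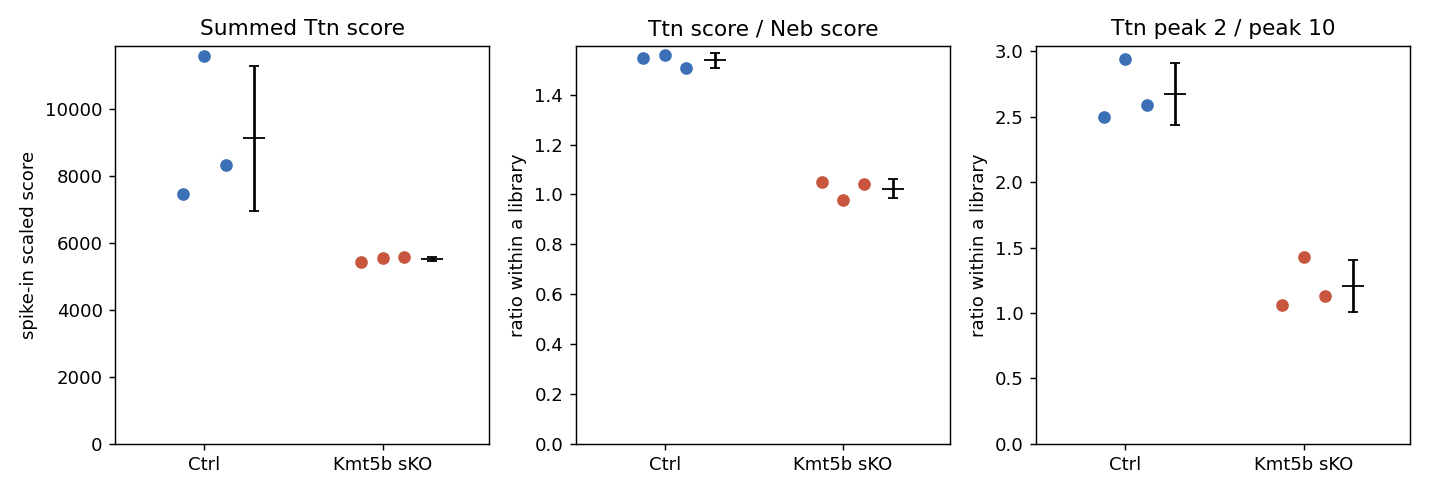
Per-library points with the mean and SD (n = 3 each) for the summed Ttn score, for its ratio to the summed Neb score, and for the ratio of Ttn peak 2 to peak 10. The Ctrl and Kmt5b sKO points are apart in all 3 panels, and the spread of the Ctrl points is small in the ratio to Neb, 1.51 to 1.56 against 0.979 to 1.05 in Kmt5b sKO. Ttn, peak 2 and peak 10 were picked by their values in this contrast.

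Ttn peaks were richer in exons than most R-loop peaks. Under the peaks 46.9% of the Ttn bases were exonic, against 28.1% of the Ttn bases outside them. The median tested peak with a gene was 0.225% exonic, and the median such peak of 15 kb or more 7.22%. Base composition differed less, with 41.9% G and C under the Ttn peaks, 40.98% outside them and a median of 42.9% over tested peaks with a gene. The excess of G over C on the RNA strand, as a share of both, was 0.014 under the Ttn peaks and -0.020 outside them. Its median over tested peaks with a gene was 0.047. Annotated repeats made up 11.3% of the bases under Ttn peaks and 21.1% of those outside.

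Along the Ttn peaks the fold change followed several features at once. Spearman's rho between exonic share and log2 fold change was -0.54 over 20 peaks and -0.60 over the 11 peaks of 5 kb or more. Over the 11 longer peaks, rho was -0.89 for G and C content and 0.82 for the share of P, E, V and K. Over all 20 peaks it was -0.40 for G and C content, and over the 19 with codons it was 0.44 for P, E, V and K. The share of repeats gave 0.69, peak length -0.68, the Ctrl score per kb -0.57 and distance from the start site -0.17 over 20 peaks. The Ctrl score per kb, which also enters the fold change, gave -0.81 over the 11 longer peaks. These are descriptions of neighbouring peaks measured in the same 6 libraries, which differ at once in length, score, exons and composition. Short peaks tended to have higher fold changes throughout the genome. The median log2 fold change was 0.91 for tested peaks shorter than 1200 bases and -0.03 for those of 15 kb or more. In that longest class 1.92% were called lower, and of its 8 Ttn peaks 6 were called lower, with a median of -0.78.

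**Figure D4:**
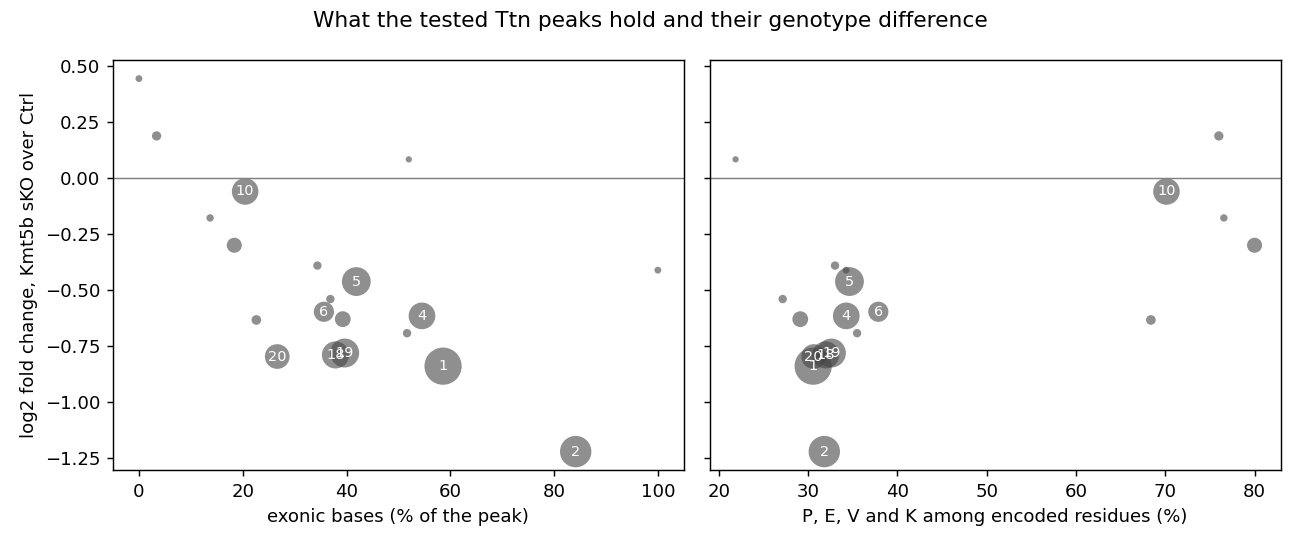
Log2 fold change of the tested Ttn peaks (vertical axis) against their exonic share (left) and against the share of P, E, V and K among the residues they encode (right), both in percent. The area of a point follows peak length and peaks of 10 kb or more carry their number. Peak 2 lies lowest at 84.2% exonic bases, and peak 10 near 0 at 70.1% P, E, V and K.

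Of 1137 autosomal genes with at least 5 tested peaks, Ttn ranked 1 in the number of peaks called lower, 10 of 20. Next came Sntb1 with 5 of 21 and Fndc1 with 5 of 7, then Arhgap10 with 4 of 20, Mybpc1 with 4 of 9 and Dtx4 with 4 of 5, so that Fndc1 and Dtx4 had larger shares than Ttn. It ranked 3 from the lowest in the ratio of summed scores, at 0.605 after 0.474 for Fndc1 and 0.593 for Dtx4, and 4 in the median log2 fold change, whose median over these genes was 0.20. In summed score it was 21 of 7575 genes, between Asap1 and Dst, which have 19 and 27 peaks. The summed score of Asap1 was 6888, 7330 and 6212 in Ctrl and 7851, 8065 and 8126 in Kmt5b sKO. That of Dst was 5867, 7512 and 5884 in Ctrl and 7918, 8032 and 7973 in Kmt5b sKO. Both were higher in Kmt5b sKO in all libraries, the opposite of Ttn. Of the other genes close in rank, the ratio of Kmt5b sKO to Ctrl was 2.72 for the predicted gene Gm11168, 1.11 for Trio, 0.854 for Arid1b and 0.819 for Prune2.

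Over the 6 libraries, the log2 summed scores most like those of Ttn were found at Eya4, a transcriptional coactivator of muscle precursors, and at Chchd3, Grb10, Dipk2a and Pdlim3. Pearson's r was between 0.987 and 0.999, and 170 of the 2097 genes compared had an r above 0.9. Eya4 scored 11212, 14828 and 11765 in Ctrl and 9022, 9123 and 9074 in Kmt5b sKO. Pdlim3, which encodes a Z-disc protein, scored 753, 1297 and 932 in Ctrl and 527, 622 and 581 in Kmt5b sKO. Both shared with Ttn the high Ctrl replicate 2, which follows from picking genes by likeness over these same libraries. Of the 13 tested peaks of Eya4, 1 was called lower and 1 higher.

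Of 44 genes of proteins that bind titin or lie beside it in the sarcomere, 27 had an autosomal peak. Of their 88 tested peaks 5 were called lower, which is 5.68% against 0.883% of all tested peaks. A further 9 were called higher, which is 10.2% against 32.9%. The median log2 fold change was 0.09 against 0.35 over all tested peaks. Without Ctrl replicate 2, 1 of the 88 was called lower and 16 higher, when 0.318% of all tested peaks were lower and 34.9% higher. The 5 lower calls were in Mybpc1, which encodes the slow-type myosin-binding protein C of the A-band, and in Pdlim3. In Mybpc1 4 of 9 tested peaks were called lower. Its longest called peak, of 10800 bases, scored 260, 461 and 337 in Ctrl and 200, 204 and 211 in Kmt5b sKO (log2 fold change -0.74 ± 0.16, limma adjusted p = 4.16e-05), and without Ctrl replicate 2 its log2 fold change was -0.53. The called Pdlim3 peak of 21800 bases scored 710, 1223 and 881 in Ctrl and 488, 565 and 546 in Kmt5b sKO (-0.78 ± 0.14, limma adjusted p = 7.1e-07), and without Ctrl replicate 2 it was at -0.57. Neither was called without that library, when the call left was a Mybpc1 peak of 3200 bases at -0.65.

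The higher calls were rarer than over all tested peaks in the list as a whole, but not in each group of partners. They made up 3 of 8 tested peaks of I-band partners (37.5%) and 3 of 15 of M-band partners (20%). At the Z-disc they were 1 of 25, among the giant sarcomere proteins 2 of 28 and among A-band partners 0 of 12. The shares were not matched for peak length. Of all tested peaks, 69.7% of those shorter than 1200 bases and 1.71% of those of 15 kb or more were called higher. At the Z-disc, Tcap, which encodes the cap protein of the titin N-terminus, had a single peak that went from 30.3 ± 4.51 to 79.3 ± 7.64. Among the I-band partners, the called peaks of Fhl2 (534 ± 37.2 to 963 ± 34.6) and Hspb1 (63.3 ± 3.21 to 130 ± 2.52) were higher, and so was that of Ankrd23 (37.7 ± 16.1 to 58.3 ± 3.79). Among the M-band partners, which include receptors of autophagy that bind near the titin kinase, those of Sqstm1 (398 ± 18.0 to 681 ± 16.4), Nbr1 (43.7 ± 6.66 to 66.3 ± 3.21) and Trim55 (51.7 ± 15.9 to 85.7 ± 23.9) were higher (SD, n = 3 each). Actn2 with 8 tested peaks, Myom3 with 7 and Pdlim5 with 6 had no call.

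Neb, which encodes nebulin, the giant protein of the thin filament, is the closest counterpart of Ttn in size, with 19 tested peaks over a gene of 242 kb. Its summed score was 4833, 7423 and 5545 in Ctrl and 5188, 5681 and 5346 in Kmt5b sKO. Here too Ctrl replicate 2 was highest, but the groups overlapped, and 1 Neb peak was called, as higher. The ratio of the Ttn score to the Neb score was 1.55, 1.56 and 1.51 in Ctrl and 1.05, 0.979 and 1.04 in Kmt5b sKO. Ctrl replicate 2 did not stand apart in this ratio.

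Of 25 genes of differentiated muscle cells, Neb included, 16 had an autosomal peak, among them Myog, Mymk and Ryr1, while Ckm, Acta1 and Actc1 had none. Of their 59 tested peaks limma called 0 lower, against 0.883% of all tested peaks, and 4 higher, or 6.78% against 32.9%. At an unadjusted p under 0.05 limma gave 5 lower, and the share of all tested peaks at that limit was not counted. The log2 fold change was below 0 at 26 of them, or 44.1% against 21.3%, and its median was 0.05. Their summed score was 11133, 18208 and 13142 in Ctrl and 13303, 14117 and 13589 in Kmt5b sKO. The Ctrl libraries spanned the Kmt5b sKO libraries, and replicate 2 was the highest of the 6. Relative to that sum, the Ttn score was 0.671, 0.636 and 0.635 in Ctrl and 0.409, 0.394 and 0.410 in Kmt5b sKO. Relative to these muscle genes the log2 difference at Ttn was -0.68, and in the spike-in scaled scores it was -0.70.

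Ccdc141, the next gene with peaks on the promoter side, had 11 peaks, which summed to 1892, 3160 and 2176 in Ctrl and 1710, 1859 and 1751 in Kmt5b sKO, without overlap. The tested peaks nearest to Ttn, 33.1 and 77.7 kb from it, had log2 fold changes of 0.18 and 0.05. The long peak of 31400 bases, 148.9 kb from Ttn, scored 1080, 1802 and 1203 in Ctrl and 842, 862 and 849 in Kmt5b sKO and was called lower, at a log2 fold change of -0.64 ± 0.13. Without Ctrl replicate 2 this was -0.42, under the fold threshold. The adjoining peak of 5400 bases was called lower at -0.87 ± 0.19, and was at -0.72 without that library. A peak of 4000 bases, which lies between these and Ttn, was called higher, at 0.76 ± 0.19. Beyond it, the 8 peaks of Sestd1 summed to 2586, 2980 and 2467 in Ctrl and 2707, 2734 and 2765 in Kmt5b sKO, and none was called. On the 3′ side, the peak of Plekha3, 17.8 kb from the end of Ttn, scored 225, 253 and 251 in Ctrl and 258, 299 and 252 in Kmt5b sKO. That of Osbpl6 was called higher, at 0.98 ± 0.22, and that of Znf385b at the far promoter side was not called, at 0.55 ± 0.36. No peak within the bounds of Ttn was assigned to another gene.

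**Figure D5:**
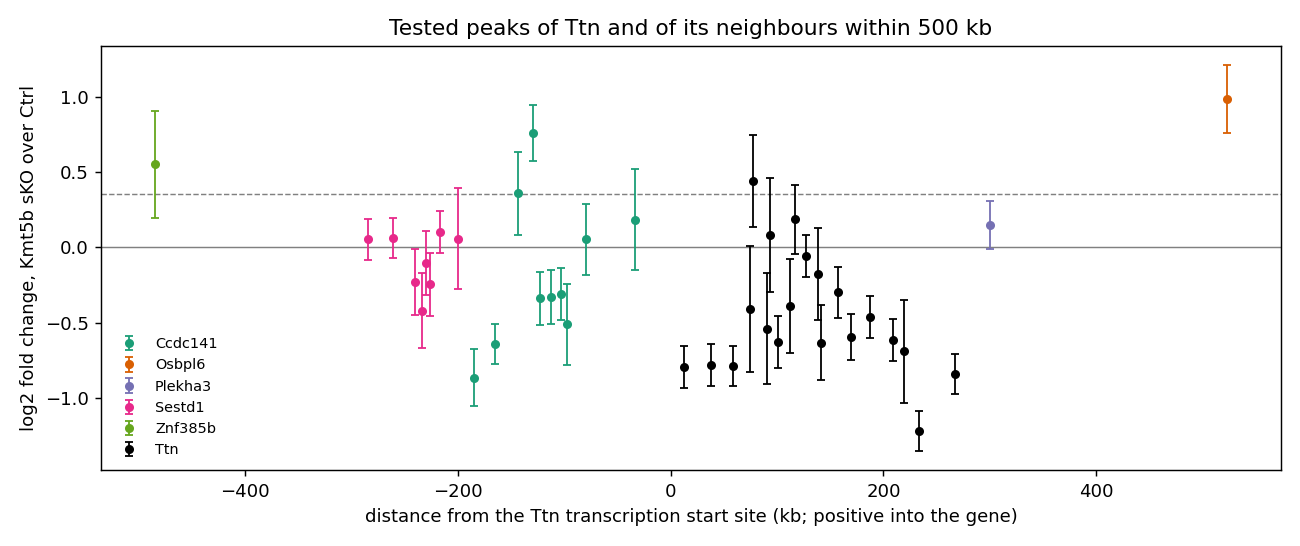
Log2 fold change, Kmt5b sKO over Ctrl, with its SE (vertical axis) of the tested peaks of Ttn (black) and of its neighbours within 500 kb, by distance from the Ttn start site in kb, positive into the gene. The dashed line is the median of all tested peaks, 0.35. Of the Ttn peaks 17 lie below 0 and 3 above it. The peaks of Ccdc141 lie between -0.87 and 0.76, and those of Sestd1, Plekha3, Osbpl6 and Znf385b between -0.42 and 0.98.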

How the data were processed

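Per the labels and the study's methods, the authors trimmed reads (FastQC 0.11.8, Trimmomatic 0.39), aligned them to GRCm38 with STAR 2.7.3a, removed duplicates with Picard 2.21.7 and called peaks against input (listed as SICER 0.0.41 in the submitters' processing notes). They merged peaks of all libraries into union peaks, summarised coverage per peak, scaled it to a Drosophila S2 spike-in (BDGP6) and assigned each peak to the gene of longest overlap. The deposited table holds this score, rounded to whole numbers, for the 6 S9.6 libraries. The scaled score is no read count, so log2(score + 1) was tested with limma 3.58.1 in R 4.3.3 on autosomal peaks of mean score above 30. The fit had a variance trend and Benjamini-Hochberg adjustment and left out the replicate number. SEs and adjusted p therefore lean on all peaks of like score and can understate the spread between the libraries of 1 peak. Without the trend the SE was 0.22 at Ttn peak 1 and 0.21 at peak 2. In simulated data 200 of 25815 peaks were changed by 1.5 on the log2 scale, with noise independent between peaks and libraries. The fit called 178 of them and 16 unchanged peaks. No Ttn peak differed by as much in the fit reported here, so this gives no rate of detection for Ttn. Exons came from GENCODE and bases from the GRCm38 RefSeq sequence. Protein composition was translated from the coding exons. Peak starts are multiples of 200, so edges are no finer.

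Every Ttn peak was named, as were neighbours within 500 kb, titin partner genes with a called peak or most peaks (1 is not reported here), the 5 genes most like Ttn among those with a mean summed score above 500, and the 3 genes next above and below it in score. The members and lists were chosen with earlier results of these data known. Labels put libraries in groups, and the input libraries, which have no values, were not used.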

Additional observations from a re-analysis of the deposited data

How the results depend on the processing

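Ttn stayed lower in Kmt5b sKO under every alternative tried for the 7 summary values, and the peak with the largest loss stayed called throughout, between -1.36 and -1.02 on the log2 scale when 1 library was left out. Leaving out 1 library gave 5 to 11 peaks called lower, 0 called higher, a median log2 fold change of -0.75 to -0.40, and log2 differences of -0.83 to -0.52 for the summed score, -0.95 to -0.60 promoter-distal and -0.67 to -0.41 promoter-proximal. The low of 5 and the smallest differences came without Ctrl replicate 2. With libraries centred on the median peak, 16 peaks were called lower, the median was -1.05, and the differences were -1.18 (sum), -1.28 (promoter-distal) and -1.04 (promoter-proximal). With quantile normalization the median was -0.84, and with equal totals the promoter-proximal difference was -0.77. The median score per kb in place of the sum gave -0.45, -0.53 (promoter-distal) and -0.25 (promoter-proximal). At a fold change over 2, 1 peak was called lower, and calls over all tested peaks were not counted at that limit. The replicate block (number as a term) gave 10 peaks called lower and a summed difference of -0.70. A fit without the variance trend also called 10 peaks lower, with a larger SE at peaks 1 and 2. The numbers did not pair the samples, with correlations of deviations between same-numbered libraries of -0.0272 to 0.0108.

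Scaling shifted the median of all tested peaks, by -0.20 (equal totals), -0.48 (median peak) and -0.36 (quantile). Calls over all tested peaks were 228 lower and 8484 higher as reported, 805 and 5579 with equal totals, 3384 and 2482 with median centring, and 1997 and 2049 with quantile normalization. Without Ctrl replicate 2, 82 were lower. With a mean score over 100, 80 of 9424 were lower and 1163 (12.3%) higher, and with a pseudocount of 10, 153 were lower. The causes of these shifts were not tested. Counts for the partner and muscle gene lists without Ctrl replicate 2 were added after seeing the data. Without read counts per peak, the counting error of each peak is unknown.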
